A study of Homo sapiens with 6 samples.

Results

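ATP-binding cassette (ABC) transporters are a large family of membrane proteins that use ATP to move substrates across a bilayer, and the family includes the pumps that export anticancer drugs. The 42 genes described here are those of the deposited table whose symbol is ABC, a subfamily letter from A to G and a digit. They were taken from 17918 genes in the table, and ABCA1 and ABCG1 were left out of the 44 symbols that match. The transcriptome was measured by RNA sequencing in KMS11 cells, an established line grown from human multiple myeloma, the malignancy of plasma cells, which secrete antibodies. The knockdown group is 3 libraries of cells carrying an shRNA (short hairpin RNA) that targets CRIP1, the gene of a small LIM domain protein, and the other 3 libraries are of cells carrying a scrambled hairpin, whose genotype is given as WT. No cell received any further treatment. The labels do not say how many hairpins or clones were used, nor that libraries came from separate cultures, and p-values therefore reflect the spread among these libraries alone, which may be technical.

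An ABC protein pairs nucleotide-binding domains, which bind and split ATP, with membrane domains that form the path of the substrate. Members of the A subfamily mainly move lipids. The B subfamily holds P-glycoprotein, the multidrug pump that lowers drug levels in myeloma cells, as well as transporters of mitochondria and lysosomes. The C subfamily mainly exports drugs, nucleotides and glutathione conjugates. The D subfamily, apart from the lysosomal ABCD4, loads fatty acids into peroxisomes, and the E and F subfamilies lack membrane domains and act on ribosomes. ABCG2 is the drug pump of the G subfamily.

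Library totals ran from 17348822 to 18005318 estimated counts with CRIP1 shRNA and from 16971454 to 17243017 with scramble. CRIP1 itself stood at 130.1 ± 3.71 TPM in the CRIP1 shRNA libraries and 3097 ± 276 TPM in scramble (SD, n = 3 each), where TPM is a transcript level corrected for gene length and library total. By edgeR's quasi-likelihood test with Benjamini-Hochberg adjustment, 77.6% of the 12612 genes tested passed the threshold, an adjusted p of 0.05, with 39.4% higher and 38.1% lower. Plasma cell markers were present in both groups, with 9 of 10 past the filter on low counts and a summed level of 3932 to 4190 TPM with CRIP1 shRNA and 8553 to 9008 TPM in scramble. Of those 9, 3 rose and 6 fell, and the sum is led by JCHAIN, the joining chain of secreted antibodies, at 1789 TPM with CRIP1 shRNA and 6443 TPM in scramble. Of 12 erythroid markers 10 rose and 0 fell, and they summed to 699 to 701 TPM against 3.86 to 5.66 TPM. HBG1, HBG2, HBE1, HBA1, HBA2, GATA1, ALAS2 and RHAG had 0 counts in scramble. The 10 that rose passed the filter on low counts only through the CRIP1 shRNA libraries, where they were high. They could therefore only be called higher. All 5 epithelial markers rose as well (84.0 to 90.1 TPM summed, against 10.3 to 13.3 TPM), and so did 2 of 4 myeloid ones (6.57 to 7.29 TPM against 0.45 to 0.71 TPM), with CD14 and CSF1R at or below 0.14 TPM in the group means. Of 5 fibroblast and endothelial markers 1 rose and 3 fell (6.15 to 6.88 TPM against 8.38 to 9.17 TPM), and of 6 mature B cell markers 1 rose and 1 fell (36.1 to 37.6 TPM against 29.7 to 30.8 TPM), with MS4A1, PAX5 and CD22 at or below 0.01 TPM. None of 4 T and NK markers passed the filter (1.31 to 1.91 TPM against 0.09 to 0.31 TPM). The part of these markers in the changes below was not tested, and in bulk RNA fewer cells of a type and less RNA per cell cannot be told apart.

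Of the 42 ABC genes, 28 passed the filter on low counts and 14 did not. Among the 28, 12 rose and 13 fell with CRIP1 shRNA. That is 89.3% of those tested, beside 77.6% over all genes, so the family was called about as often as the transcriptome around it. Its median log2 fold change was -0.04, beside 0.01 for all genes tested. Changes of at least 2-fold were found in 6 members, or 21.4%, beside 18.1% of all genes. Among these members ABCB1 and ABCA9 rose, and ABCA2, ABCB9 and ABCC5 fell. ABCB1 and ABCA9 passed the filter only through the CRIP1 shRNA libraries, where they were high. TPM values of the groups did not overlap for 23 members, and 78.5% of all genes tested had groups that did not overlap. An exact two-sided permutation test of 3 against 3 libraries cannot give a p below 0.1, the value it gave for ABCB1, ABCC1, ABCC5 and ABCG2.

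**Figure D1:**
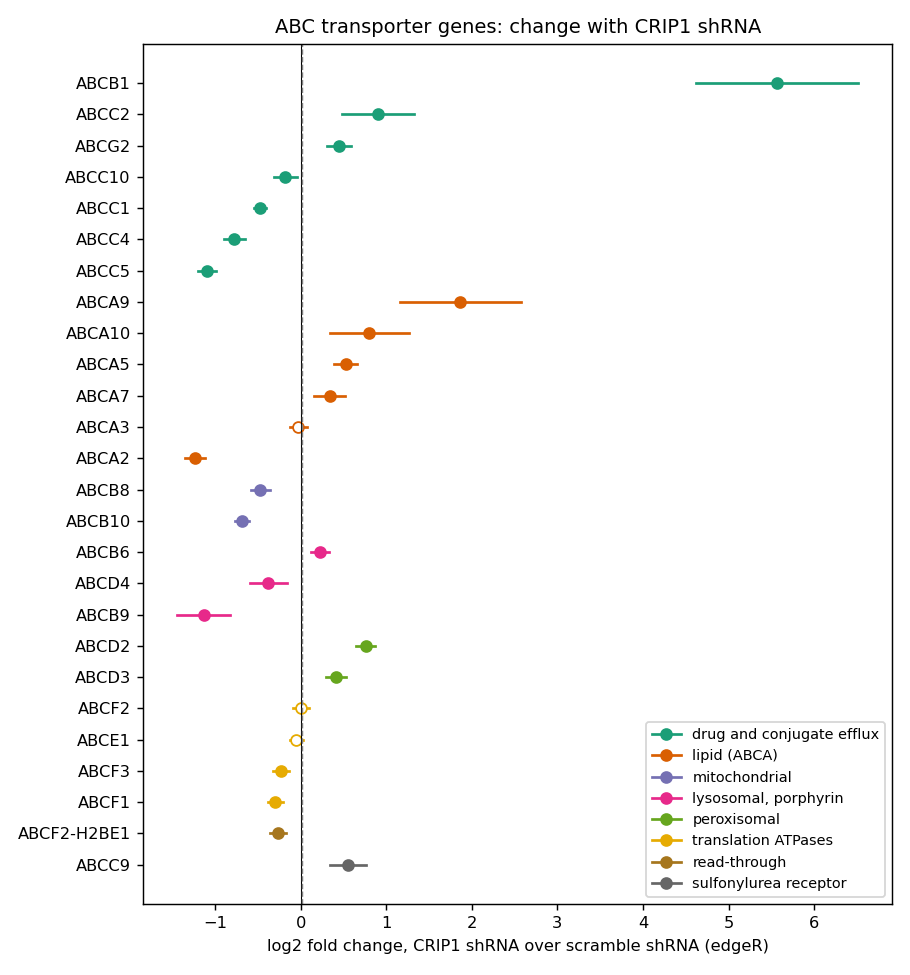
Log2 fold change of the tested ABC genes reported here (x axis, CRIP1 shRNA over scramble shRNA, edgeR) with its 95% interval, grouped by role and colored as in the legend; filled points passed the threshold, open points did not, and the dashed line is the median of all genes tested. ABCB1 lies far to the right at 5.56, the peroxisomal genes ABCD2 and ABCD3 lie to the right of 0, and the mitochondrial genes ABCB10 and ABCB8 lie to its left.

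The family as a whole kept its rank order at the top. ABCB10, ABCE1, ABCF2-H2BE1, ABCC1, ABCF1, ABCF3, ABCF2 and ABCB6 held ranks 1 to 8 by mean TPM in both groups. A level of at least 10 TPM was reached by 17 members with CRIP1 shRNA and 18 in scramble, and 24 members reached 1 TPM in either group. Below those leaders the order changed: ABCC5 stood at rank 13 with CRIP1 shRNA and 9 in scramble, and ABCD3 at 9 and 12. Summed over all 42 genes, the level was 852.3 ± 12.6 TPM with CRIP1 shRNA and 912.7 ± 22.5 TPM in scramble (SD, n = 3 each).

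**Figure D2:**
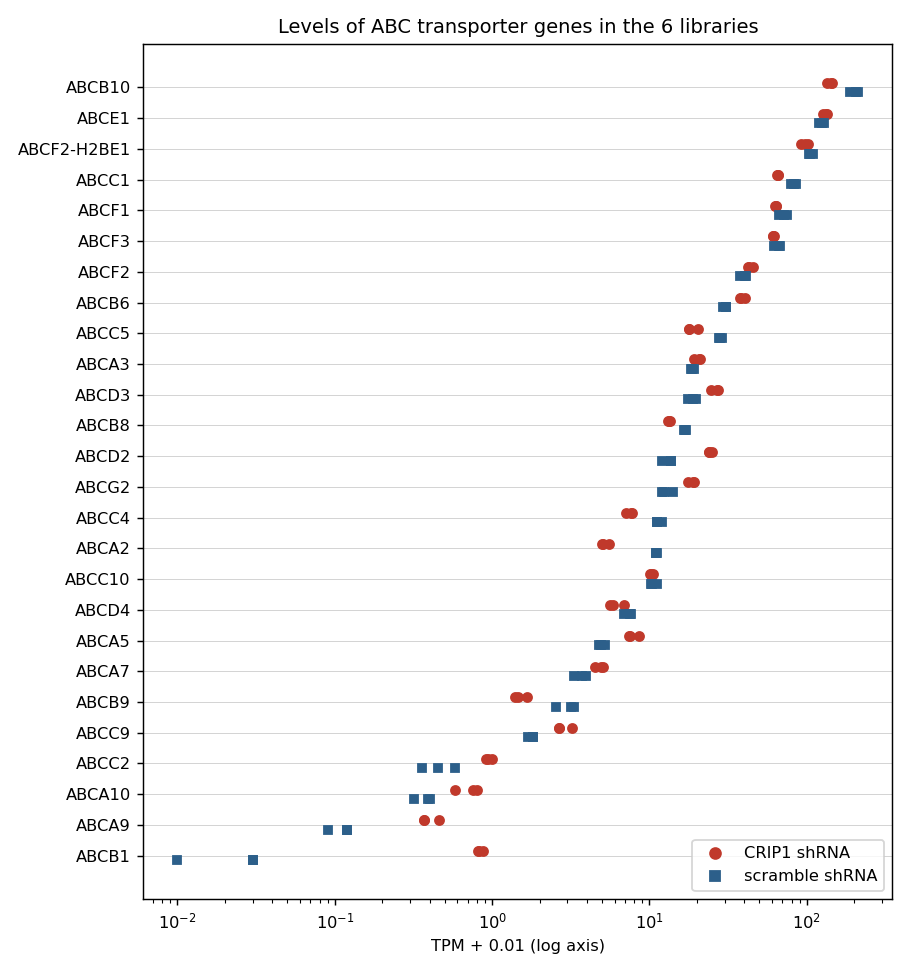
TPM of the tested ABC genes reported here in the 6 libraries (x axis, TPM plus 0.01 on a log axis; circles, CRIP1 shRNA; squares, scramble shRNA), ordered by the mean in scramble. ABCB10 is at the top at 140.2 TPM with CRIP1 shRNA and 202.4 TPM in scramble, and ABCB1 at the bottom shows the widest gap between the groups.

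Drug efflux pumps moved in opposite directions. Of the 10 genes of this group, 7 could be tested, of which 3 rose (ABCB1, ABCC2 and ABCG2) and 4 fell (ABCC1, ABCC4, ABCC5 and ABCC10). Over all genes tested, 39.4% rose and 38.1% fell, so changes in both directions are not particular to the pumps. ABCB1 passed the filter only through the CRIP1 shRNA libraries. The summed level of the 10 genes was 122.1 ± 0.964 TPM with CRIP1 shRNA and 146.0 ± 3.77 TPM in scramble (SD, n = 3 each).

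ABCB1 encodes P-glycoprotein, which exports doxorubicin, vincristine and the proteasome inhibitor carfilzomib. The gene (NCBI gene 5243) lies on the minus strand of chromosome 7, 87503633 to 87713323 in GRCh38 as annotated by GENCODE 29. It had 39, 41 and 42 estimated counts in the CRIP1 shRNA libraries and 1, 0 and 1 in the scramble libraries. All 3 libraries with the CRIP1 hairpin were thus well apart from a group that sat at the floor of detection. With 122 counts against 2, the ratio was 55.6 (95% counting interval 15.1 to 464, exact binomial, counting error only). The fitted log2 fold change was 5.56 (SE 0.46, edgeR adjusted p = 6.40e-10). The level stayed low in absolute terms, at 0.80, 0.82 and 0.87 TPM with CRIP1 shRNA and 0.02, 0 and 0.02 TPM in scramble, and ABCB1 made up 0.65% to 0.713% of the summed pump TPM with CRIP1 shRNA.

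RefSeq gives ABCB1 a pair of start sites, and the 250 bases before each are shown because this is the member with the widest change. Capitals mark matches, on either strand, to the CCAAT box (CCAAT), the GC box (GGGCGG), the GATA motif (AGATAA) and the E-box (CACGTG), which do not overlap here, read 5′ to 3′ on the gene's strand with the start site just after the last base (build GRCh38.p14).
ABCB1 downstream start, chr7:87600885-87601134: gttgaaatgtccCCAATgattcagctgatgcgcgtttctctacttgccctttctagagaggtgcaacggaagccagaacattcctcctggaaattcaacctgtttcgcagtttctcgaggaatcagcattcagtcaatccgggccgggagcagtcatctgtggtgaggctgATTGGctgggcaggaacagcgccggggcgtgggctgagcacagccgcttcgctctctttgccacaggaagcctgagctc
ABCB1 upstream start, chr7:87713296-87713545: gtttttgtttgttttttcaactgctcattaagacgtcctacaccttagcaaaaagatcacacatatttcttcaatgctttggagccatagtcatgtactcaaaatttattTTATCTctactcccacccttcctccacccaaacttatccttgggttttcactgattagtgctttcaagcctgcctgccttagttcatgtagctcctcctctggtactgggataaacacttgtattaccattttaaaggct
The downstream window holds 2 CCAAT matches, of which the reversed one spans positions -79 to -75 from the start site, and no GC box match. The upstream window holds a reversed GATA match at -140 to -135. Over all 35116 windows of the table, 32.0% hold a CCAAT match, 42.6% a GC box match, 9.17% a GATA match and 6.34% an E-box match. CCAAT and GC box matches are therefore common, and GATA and E-box matches less so. Which start site gave the reads cannot be read from gene counts. GATA1, the transcription factor of red cell precursors that binds GATA motifs, was at 14.4 TPM with CRIP1 shRNA and listed at 0 in scramble, and YBX1, a protein reported to act through the reversed CCAAT box of human ABCB1, was at 349.7 and 974.2 TPM. The part of either in the change of ABCB1 was not tested.

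The genes around ABCB1 moved in both directions. ABCB4, the neighboring phosphatidylcholine transporter and closest relative of ABCB1, had 4 rounded counts over the 3 CRIP1 shRNA libraries and 0 in scramble, which is at the limit of detection. RUNDC3B, whose span overlaps that of ABCB1 on the other strand, had 57 and 52 counts and did not pass the test (log2 fold change -0.00, SE 0.27, edgeR adjusted p = 0.998). No strand setting is given, so reads from overlapping genes on the 2 strands may have been mixed. Within 500 kb on either side, CROT (0.73), ELAPOR2 (1.13) and SLC25A40 (0.40) rose, while DMTF1 (-0.13), TMEM243 (-0.17), DBF4 (-0.48), ADAM22 (-0.53) and SRI (-0.32) fell on the log2 scale.

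ABCG2, the breast cancer resistance protein, exports topotecan, urate and porphyrins. It was at 19.1, 17.6 and 19.0 TPM with CRIP1 shRNA and 12.4, 12.1 and 14.2 TPM in scramble. Every library with the CRIP1 hairpin was above every scramble library, and the log2 fold change was 0.44 (SE 0.07, edgeR adjusted p = 4.94e-06). Its share of the summed pump TPM was 14.5% to 15.6% with CRIP1 shRNA and 8.43% to 9.49% in scramble. ABCC2, which exports bilirubin glucuronide and drug conjugates from hepatocytes, was scarce at 0.99, 0.93 and 0.91 TPM with CRIP1 shRNA and 0.35, 0.57 and 0.44 TPM in scramble. It rose without overlap between the groups (log2 fold change 0.90, SE 0.20, adjusted p = 0.0004).

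ABCC1, or MRP1, exports glutathione conjugates and leukotriene C4 and was the most abundant pump, with 52.6% to 54.2% of the summed pump TPM in CRIP1 shRNA libraries and 56.0% to 56.8% in scramble. Its values were 64.8, 65.7 and 65.2 TPM with CRIP1 shRNA and 82.9, 79.5 and 84.8 TPM in scramble, and the groups were clear of each other. The log2 fold change was -0.47 (SE 0.04, edgeR adjusted p = 1.34e-10). ABCC4, or MRP4, which exports cyclic nucleotides and prostaglandins, was at 7.10, 7.73 and 7.60 TPM with CRIP1 shRNA and 11.1, 11.1 and 12.0 TPM in scramble. It fell by 0.77 on the log2 scale (SE 0.06, adjusted p = 2.43e-10).

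ABCC10, or MRP7, a pump of taxanes, was at 10.1, 10.5 and 10.2 TPM with CRIP1 shRNA and 11.1, 10.4 and 10.2 TPM in scramble. The groups overlapped. The call was a weak one (log2 fold change -0.18, SE 0.06, edgeR adjusted p = 0.0137), and it was lost with DESeq2 (adjusted p = 0.0563), with upper-quartile scaling (0.0546), on log2(TPM + 1) (0.561), on log2(FPKM + 1) (0.225) and log2(FPKM + 0.1) (0.228), with the trend of log counts on gene GC content removed (0.293, with or without a replicate block) and without scramble replicate 1 (0.0815). ABCC3, ABCC6 and ABCC11 were too low to test, with at most 0.23 TPM in any library.

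**Figure D3:**
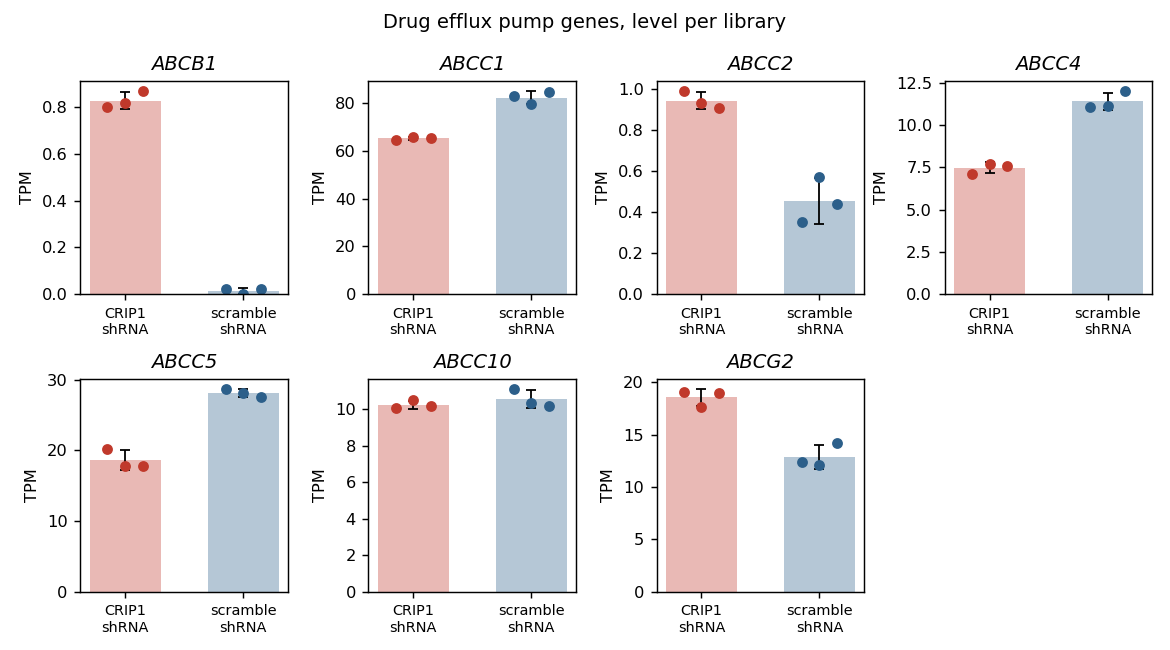
TPM of the 7 tested drug efflux pump genes in each library (points), with the group mean (bar) and SD (error bar), CRIP1 shRNA to the left of scramble shRNA in each panel and a linear axis from 0 that differs between panels. ABCB1, ABCC2 and ABCG2 are higher with CRIP1 shRNA, ABCC1, ABCC4 and ABCC5 are lower, and ABCC10 overlaps.

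ABCC5, or MRP5, which exports cyclic nucleotides and nucleotide analogs, had the largest fall of the pumps in counts and differed between the scales of the table. It had 743, 677 and 675 estimated counts with CRIP1 shRNA and 1351, 1358 and 1369 in scramble. The log2 fold change from counts was -1.09 (SE 0.05, edgeR adjusted p = 5.72e-14). In TPM it stood at 20.3, 17.8 and 17.8 with CRIP1 shRNA and 28.7, 28.2 and 27.5 in scramble, and the change on log2(TPM + 1) was -0.57 (adjusted p = 1.02e-05, limma). Both scales put every CRIP1 shRNA library below every scramble library, but by different amounts.

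The gene length behind FPKM also differed between the groups. Counts divided by FPKM and the library total imply an effective length of 3694, 3749 and 3879 bases with CRIP1 shRNA and 4717, 4779 and 5061 bases in scramble. The log2 ratio of the group means was -0.36, and 6 of 9312 genes with at least 100 counts and more than 1 FPKM in every library, ABCC5 included, had a ratio as low or lower. Counting both directions, 33 of these genes had a log2 ratio at least as large in absolute value. The other 21 members compared had ratios of -0.03 to 0.07. RSEM, which is named in the submitters' processing notes, averages this length over transcripts by their estimated abundance. GENCODE 29 lists 7 protein-coding ABCC5 transcripts of 591 to 5921 bases. The transcripts themselves were not quantified in the table, so a change in their mix was not tested.

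The gene lies on chromosome 3, 183919934 to 184018015, minus strand. The 250 bases before its RefSeq start are shown to set the pump with the largest fall in counts beside ABCB1, with the same motifs in capitals.
ABCC5, chr3:184017885-184018134: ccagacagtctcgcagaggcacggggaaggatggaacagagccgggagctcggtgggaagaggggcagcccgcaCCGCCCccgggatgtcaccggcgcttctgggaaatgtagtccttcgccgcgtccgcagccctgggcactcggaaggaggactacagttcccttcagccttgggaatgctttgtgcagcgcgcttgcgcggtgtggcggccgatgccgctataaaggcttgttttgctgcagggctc
This window holds 1 reversed GC box match, at -176 to -171, and no CCAAT match, and its GC content is 64.8%, against 55.6% for the downstream window of ABCB1.

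**Figure D4:**
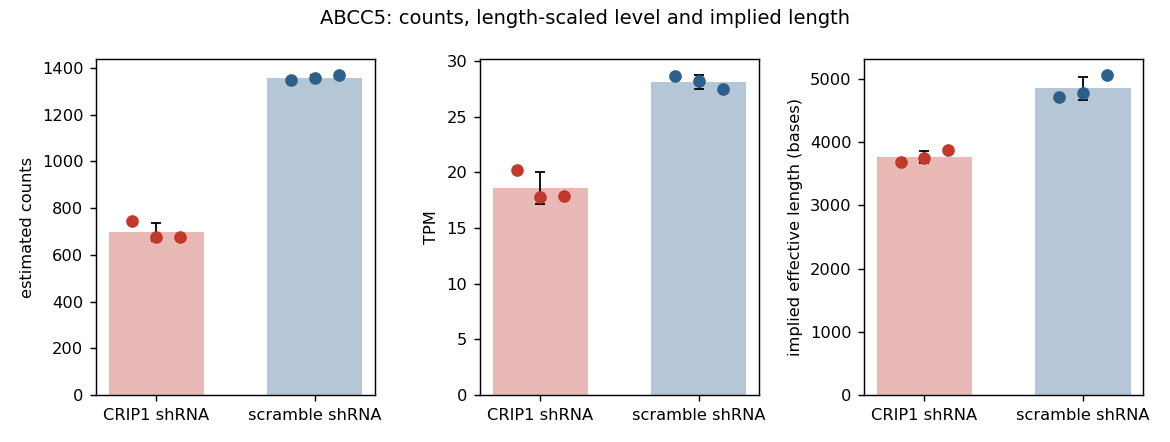
ABCC5 in each library (points) with group mean (bar) and SD (error bar), CRIP1 shRNA to the left of scramble shRNA: estimated counts, TPM and the effective length in bases implied by counts and FPKM. The counts differ by more than the TPM, and the implied length is 3774 bases with CRIP1 shRNA and 4852 bases in scramble.

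Transporters of the peroxisome membrane, which bring fatty acids in for oxidation, rose. ABCD2, which carries very long chain and polyunsaturated acyl-CoA, was at 25.01, 23.8 and 23.9 TPM with CRIP1 shRNA and 11.9, 13.7 and 13.7 TPM in scramble. Every CRIP1 shRNA library was far above every scramble library (log2 fold change 0.76, SE 0.05, edgeR adjusted p = 6.49e-11). ABCD3, or PMP70, which carries branched-chain and dicarboxylic acids, was at 27.2, 24.5 and 26.8 TPM with CRIP1 shRNA and 17.6, 19.6 and 18.9 TPM in scramble (0.41, SE 0.06, adjusted p = 1.05e-06). The mean levels of ABCD2 and ABCD3 were 24.3 and 26.2 TPM with CRIP1 shRNA, and 13.1 and 18.7 TPM in scramble. ABCD3 remained called with the GC trend removed, where its log2 fold change was 0.26.

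The genes are on different chromosomes, ABCD2 on 12 and ABCD3 on 1. The 250 bases before the RefSeq starts of ABCD2 and ABCD3, its window on the plus strand, are shown because these genes rose together, with the same motifs in capitals.
ABCD2, chr12:39619804-39620053: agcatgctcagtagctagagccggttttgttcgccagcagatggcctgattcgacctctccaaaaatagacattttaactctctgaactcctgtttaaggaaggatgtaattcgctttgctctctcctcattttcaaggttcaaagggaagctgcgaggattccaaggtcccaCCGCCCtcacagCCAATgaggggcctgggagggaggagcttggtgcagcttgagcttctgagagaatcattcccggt
ABCD3, chr1:94418139-94418388: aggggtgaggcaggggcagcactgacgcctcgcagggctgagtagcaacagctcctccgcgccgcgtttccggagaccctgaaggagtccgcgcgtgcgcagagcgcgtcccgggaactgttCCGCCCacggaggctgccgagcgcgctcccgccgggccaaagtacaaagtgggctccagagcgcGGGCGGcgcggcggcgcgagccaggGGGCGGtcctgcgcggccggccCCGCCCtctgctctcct
The ABCD3 window has a GC content of 74.4% and holds 4 GC box matches. ABCD2, at 50.8%, has 1 GC box match and 1 CCAAT match in this window. A second RefSeq start of ABCD2, chr12:39605508-39605757, has a GC content of 35.2% and none of these motifs. A GC box match was found in 25 of the 50 windows of ABC genes, beside the 42.6% of all windows.

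Genes that place these proteins in the membrane rose with them. PEX19, the chaperone of peroxisomal membrane proteins, was at 141.4 and 116.2 TPM in CRIP1 shRNA and scramble (log2 fold change 0.15, SE 0.03), its docking receptor PEX3 at 24.5 and 12.1 TPM (0.89, SE 0.07) and PEX16 at 51.7 and 31.7 TPM (0.58, SE 0.07). All 3 passed the test (adjusted p = 0.000559, 2.63e-10 and 1.15e-07 by edgeR).

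Transporters of the inner mitochondrial membrane fell. ABCB10, which supports heme synthesis in mouse red cell precursors, was the most abundant member of the family. Its values were 143.3, 133.6 and 143.7 TPM with CRIP1 shRNA and 188.8, 205.7 and 212.8 TPM in scramble, with no overlap (log2 fold change -0.68, SE 0.04, edgeR adjusted p = 2.21e-12). ABCB8, a subunit of a mitochondrial potassium channel, was at 13.2, 13.1 and 13.4 TPM with CRIP1 shRNA and 16.9, 16.5 and 16.7 TPM in scramble, again with no overlap (-0.47, SE 0.05, adjusted p = 5.99e-08).

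ABCB10 fell in the same libraries in which 10 of 12 erythroid markers rose. Those 10 passed the filter only through the CRIP1 shRNA libraries, so they could only be called higher, and 1 more was tested and not called. Ferrochelatase, FECH, the enzyme that completes heme and a partner of ABCB10, rose (47.7 and 30.8 TPM, log2 fold change 0.51, SE 0.05, edgeR adjusted p = 2.93e-09). SLC25A37, or mitoferrin-1, the mitochondrial iron importer that mouse ABCB10 stabilizes, was at 23.8 and 19.3 TPM and did not pass the test (0.12, SE 0.06, adjusted p = 0.0773). The iron-sulfur scaffold ISCU rose (756.6 and 491.7 TPM, 0.45, SE 0.04, adjusted p = 5.83e-10), while the sulfur donor NFS1 fell (-0.20, SE 0.06, adjusted p = 0.0028).

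Transporters of lysosomes and porphyrins were split. ABCB6, a porphyrin transporter that carries the Langereis blood group antigen, was at 37.8, 40.7 and 37.9 TPM with CRIP1 shRNA and 29.5, 30.6 and 30.6 TPM in scramble. It rose, though by less in counts (log2 fold change 0.22, SE 0.05, edgeR adjusted p = 0.00046) than on log2(TPM + 1), where it was 0.35. ABCB9, the lysosomal peptide transporter TAPL, was at 1.66, 1.39 and 1.44 TPM with CRIP1 shRNA and 3.16, 3.32 and 2.54 TPM in scramble. The groups did not overlap and the log2 fold change was -1.13 (SE 0.15, adjusted p = 6.38e-07). On log2(TPM + 1), where adding 1 shrinks the change of so scarce a gene, it was -0.68.

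ABCD4 exports vitamin B12 from lysosomes together with LMBRD1. It fell (log2 fold change -0.38, SE 0.10, edgeR adjusted p = 0.00249), with 6.12 and 7.34 TPM in CRIP1 shRNA and scramble and groups that overlapped in TPM, and on log2(TPM + 1) its change was -0.23. LMBRD1 was at 15.03 and 13.1 TPM (0.06, SE 0.07, adjusted p = 0.394), and the B12-handling proteins MMACHC and MMADHC were at 6.60 and 6.12 TPM (adjusted p = 0.639) and 221.5 and 222.8 TPM (-0.15, adjusted p = 0.00138).

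Lipid transporters of the A subfamily, counted with ABCB4, form a group of 12 genes, of which 6 could be tested. Of these, ABCA5, ABCA7, ABCA9 and ABCA10 rose, ABCA2 fell and ABCA3 did not pass the test, where 39.4% of all genes tested rose. The median log2 fold change of the 6 was 0.43, beside 0.01 for all genes tested. ABCA9 passed the filter only through the CRIP1 shRNA libraries, where it was high, so this count and median describe the list and no more. With at least 50 counts required in 3 libraries, ABCA9 and ABCA10 dropped out. Of the genes left, ABCA5 (0.54) and ABCA7 (0.35) rose, ABCA2 (-1.22) fell and ABCA3 (-0.01) was not called. ABCA2, which shifts sterols in late endosomes and lysosomes, was at 5.01, 5.07 and 5.49 TPM with CRIP1 shRNA and 11.2, 11.02 and 11.04 TPM in scramble. Its scramble values lay within 0.2 TPM of each other and above every CRIP1 shRNA value (-1.23, SE 0.06, edgeR adjusted p = 4.68e-14). ABCA7, a phospholipid exporter whose variants raise the risk of Alzheimer's disease, was at 4.83 and 3.65 TPM (0.34, SE 0.09, adjusted p = 0.00137). ABCA3, the phospholipid transporter of lung surfactant bodies, was at 20.2 and 18.7 TPM and was not called (-0.03, 95% interval -0.13 to 0.07, adjusted p = 0.627), a sign that turned positive on log2(TPM + 1) (0.10), on log2(FPKM + 1) (0.06) and log2(FPKM + 0.1) (0.06), with upper-quartile scaling (0.02), with the GC trend removed (0.08) and without CRIP1 shRNA replicate 1 (0.02).

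The 4 that rose included 3 neighbors. ABCA8, ABCA9, ABCA6, ABCA10 and ABCA5 lie side by side on the minus strand of chromosome 17 over 460.0 kb, from 68867292 to 69327244 in GRCh38 (GENCODE 29). ABCA5, a transporter of lysosomes, was the only one of them above 1 TPM, at 8.57, 7.41 and 7.51 TPM with CRIP1 shRNA and 4.80, 4.91 and 5.23 TPM in scramble. It rose without overlap (log2 fold change 0.53, SE 0.06, edgeR adjusted p = 2.59e-07). ABCA9 had 19, 25 and 21 counts with CRIP1 shRNA and 5, 6 and 5 in scramble (1.87, SE 0.34, adjusted p = 4.30e-05). ABCA10 had 42, 33 and 44 counts with CRIP1 shRNA and 22, 18 and 22 in scramble (0.80, SE 0.22, adjusted p = 0.00259).

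Both other genes of the cluster were below the filter. ABCA8 had 15, 15 and 10 counts with CRIP1 shRNA and 0 in each scramble library, which is at least 12.2-fold higher when the scramble group is set to its floor of 3 summed counts. ABCA6 had 14, 4 and 5 counts with CRIP1 shRNA and 2, 1 and 1 in scramble, where 1 library holds most of the reads; its ratio was 5.24 (95% counting interval 1.79 to 20.9). In a fit with no filter on low counts, ABCA8 (adjusted p = 1.48e-05), ABCA6 (0.0123) and ABCA13 (0.0302), which lies on another chromosome, were also called higher. Estimated counts of all 5 cluster genes were whole numbers in every library, so no reads were visibly split between these related genes.

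The borders of the cluster differed. MAP2K6, the nearest gene of the table beyond ABCA5, fell (log2 fold change -2.71, SE 0.13, edgeR adjusted p = 7.15e-14), with 121 counts over the CRIP1 shRNA libraries and 723 over scramble. FAM20A, the nearest beyond ABCA8, had 15 and 16 counts and was not tested. Beyond it, PRKAR1A (0.27), WIPI1 (0.96) and ARSG (0.64) rose.

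**Figure D5:**
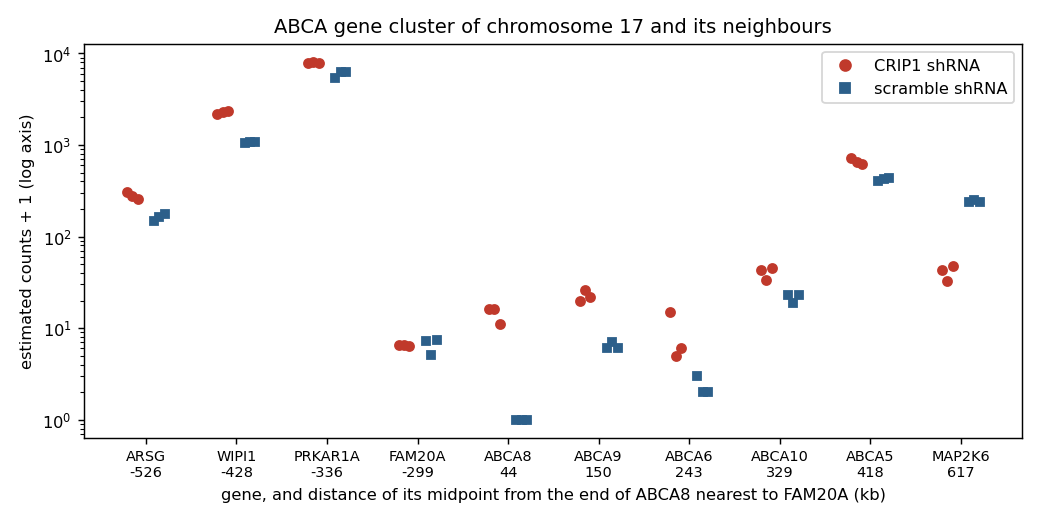
Estimated counts plus 1 in each library (y axis, log axis; circles, CRIP1 shRNA; squares, scramble shRNA) for the ABCA genes of chromosome 17 and their neighbors within 500 kb, in genomic order, with the midpoint of each gene in kb from the outer end of ABCA8 under its name. The CRIP1 shRNA points lie above the scramble points for all 5 ABCA genes, and below them for MAP2K6.

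The ATPases that act on ribosomes changed little. Of 4, ABCF1 and ABCF3 fell and ABCE1 and ABCF2 did not pass the test, with a median log2 fold change of -0.14 in counts. The 4 summed to 300.3 ± 2.75 TPM with CRIP1 shRNA and 300.2 ± 9.23 TPM in scramble (SD, n = 3 each). With ABCF2-H2BE1, which shares reads with ABCF2, the sums were 397.1 ± 8.1 TPM and 405.8 ± 9.2 TPM. The scales differ, as the median change of all genes tested was 0.12 on log2(TPM + 1) and 0.01 in counts. ABCF1, which binds the initiation factor eIF2, was at 63.5 and 71.0 TPM (log2 fold change -0.30, SE 0.04, edgeR adjusted p = 2.66e-06), or -0.16 on log2(TPM + 1). ABCF3 was at 61.5 and 65.5 TPM (-0.23, SE 0.04, adjusted p = 9.70e-05) with groups that overlapped in TPM, and it was not called on log2(TPM + 1) (-0.09, adjusted p = 0.0754). ABCE1, which splits ribosomes after termination, was at 131.5 and 124.0 TPM (-0.05, 95% interval -0.13 to 0.02, adjusted p = 0.204). With the GC trend removed ABCE1 was called lower (-0.20, adjusted p = 2.26e-06), while on log2(TPM + 1) its change was 0.08 (adjusted p = 0.0728).

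Among the genes that work with ABCE1, the ribosome rescue factors PELO (-0.26, SE 0.05) and HBS1L (-0.35, SE 0.04) and the release factor ETF1 (-0.17, SE 0.04) fell on the log2 scale, and GSPT1, the other release factor, rose (0.32, SE 0.03). GCN1, a ribosome-binding protein whose yeast form works with an F subfamily ATPase, had the smallest adjusted p of all 23 partner genes tested (49.5 and 94.4 TPM; -1.07, SE 0.04, edgeR adjusted p = 2.99e-16).

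ABCF2 shares its start with the read-through gene ABCF2-H2BE1, and counts of both were split between them in fractions. ABCF2 was at 43.7 and 39.6 TPM in CRIP1 shRNA and scramble and was not called in counts (log2 fold change 0.01, 95% interval -0.09 to 0.10, adjusted p = 0.891), whereas ABCF2-H2BE1, at 96.8 and 105.6 TPM, fell (-0.26, SE 0.04, edgeR adjusted p = 1.64e-05), or -0.13 on log2(TPM + 1). Summed into 1 gene, they were called lower (-0.14, adjusted p = 0.00123), so the values of either alone rest on how the reads were divided. ABCF2 alone was called higher on log2(TPM + 1) (0.14, adjusted p = 0.0227), and likewise once the GC trend was removed (0.11, adjusted p = 0.0241).

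ABCC9, the sulfonylurea receptor SUR2 of ATP-sensitive potassium channels, was at 3.20, 2.66 and 2.66 TPM with CRIP1 shRNA and 1.81, 1.80 and 1.68 TPM in scramble. It rose (log2 fold change 0.56, SE 0.10, edgeR adjusted p = 4.67e-05). The change was 0.60 on log2(FPKM + 0.1) and 0.36 on log2(FPKM + 1), where adding 1 shrinks the change of so scarce a gene. The potassium channel subunit KCNJ11 fell, close to the threshold (0.85 and 1.09 TPM, -0.50, SE 0.23, adjusted p = 0.0491).

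The other members were at the edge of detection. ABCB5 and ABCG4 had 0 counts in all 6 libraries, which allows up to 0.0567 CPM (counts scaled to library total) over the CRIP1 shRNA group and 0.0585 over the scramble group. ABCA4, ABCA12, ABCC3, ABCC6, ABCG5 and ABCG8 had between 0 and 5 counts in any library, as did ABCA13, with 14 counts against 3 over the groups. ABCB11, the bile salt export pump, had 4 to 11 counts per CRIP1 shRNA library and 9 to 13 per scramble library after rounding, and ABCC11 had 4 to 8 and 1 to 7. No differences in ABCB11 or ABCC11 were called in the fit with no filter (adjusted p = 0.22 and 0.791 by edgeR).

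Genes that regulate drug efflux moved in both directions. Of the 18 measured, 14 were tested, and 6 rose and 8 fell, beside 39.4% higher and 38.1% lower over all genes tested. YBX1 (-1.61, SE 0.03, adjusted p = 2.61e-19), ETS1 (-0.83, SE 0.04, adjusted p = 2.06e-13) and FOXO3 (-0.57, SE 0.03, adjusted p = 4.95e-12) had the smallest adjusted p by edgeR. The retinoid receptor RXRA fell (-0.73, SE 0.04), while the xenobiotic sensor AHR (0.42, SE 0.06), the hypoxia factor HIF1A (0.62, SE 0.04), NFE2L2 (0.50, SE 0.04), SP1 (0.42, SE 0.03) and NFYA, a subunit of the CCAAT-binding factor (0.47, SE 0.05), rose. NR1I2, the drug-sensing receptor PXR of the liver, had 3 counts over all libraries.

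Among 14 other genes of drug transport, 12 were tested, 5 rose and 6 fell, where 39.4% of all genes tested rose and 38.1% fell. Uptake carriers had the smallest adjusted p: the organic anion carrier SLCO4A1 was at 8.19 and 26.9 TPM in CRIP1 shRNA and scramble (log2 fold change -1.80, SE 0.06, edgeR adjusted p = 4.79e-16), and the nucleoside carrier SLC29A1 at 43.6 and 78.1 TPM (-0.96, SE 0.05, adjusted p = 5.80e-13). The copper and platinum importer SLC31A1 was at 40.5 and 24.2 TPM and rose (0.61, SE 0.04, adjusted p = 9.64e-11). TAP1 and TAP2, ABC peptide transporters of antigen presentation that carry no ABC symbol, fell by 0.17 (SE 0.04) and 0.14 (SE 0.04) on the log2 scale. Partners of ABC proteins, of which several are given above, were 7 higher, 8 lower and 8 not called of 23, beside 77.6% called over all genes.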

How the data were processed

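Per the labels, libraries of KMS11 total RNA were made with a SMARTER mRNA kit. Per the file headers, the deposited table holds an estimated count, a TPM value and an FPKM value (fragments scaled for length and library total) for every gene and library. Tools listed in the submitters' processing notes, without roles, are RSEM 1.2.8, HISAT2 2.1.0 and Bowtie2 2.2.5, with the build GRCh38.p13; annotation and strand setting are not given in the sources used here.

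Estimated counts were rounded, filtered with filterByExpr (by group, minimum count 10), scaled by TMM and fitted on group alone by the quasi-likelihood method of edgeR 4.0.16 (R 4.3.3), with Benjamini-Hochberg adjustment over 12612 genes and a threshold of 0.05. Log2 fold changes are CRIP1 shRNA over scramble, and intervals are 95%. The fit was tested on simulated data in which few genes changed and the changed genes were not scarce. It found 62 of 67 genes changed 1.25-fold, with 12 false calls among 12612 genes. That test does not cover scarce members, or data in which most genes were called, as here. Libraries of one group differed beyond sampling noise (chi-square per gene 1.62 to 4.15). Alternatives were other scalings and filters, DESeq2 1.42.0, limma 3.58.1 on log2 FPKM (pseudocount 1 or 0.1) or log2 TPM (pseudocount 1), a loess offset on GC content, a replicate block and each library left out; summing ABCF2 with ABCF2-H2BE1 was added after the data were seen. Genes given in full were those called with an absolute log2 fold change of at least 0.5 and at least 2 TPM in a group, plus 8 drug pumps; others complete their group, and some genes are not reported here, though they enter the counts. The members and gene lists were chosen with earlier results of these data known. Promoter windows are from RefSeq (GRCh38.p14); 34 of 42 members had one.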

Additional observations from a re-analysis of the deposited data

How the results depend on the processing

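Of the 28 members tested, 23 kept their direction and their side of the threshold under all of the 18 alternatives in which they were tested; the exceptions were ABCA3, ABCC10, ABCE1, ABCF2 and ABCF3. The counts of members called, 12 higher and 13 lower, stayed within 1.5 times, at 8 to 15 higher and 11 to 13 lower. The 8 came with 24 members tested and lies at that limit. The 15 came with 40 members tested, so these counts also follow how many members were tested. On log2(TPM + 1) the median of all genes was 0.12, not 0.01, and 61.4% of called genes were higher, not 50.8% (5531 higher and 3482 lower, against 4974 and 4809). The members' median of -0.04 became 0.0044 with upper-quartile scaling, 0.0037 with the GC trend removed, 0.004 with that and the replicate block, 0.093 with no filter, -0.19 with at least 50 counts in 3 libraries, -0.11 on log2(FPKM + 1) and -0.11 on log2(FPKM + 0.1); filters change which members enter it, and for the others the cause was not tested. Leaving out each library gave -0.066 to -0.017, and 4809 to 4940 genes higher and 4647 to 4846 lower.

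ABCA3 turned positive with upper-quartile scaling (0.017), on log2(FPKM + 1) (0.056), log2(FPKM + 0.1) (0.061) and log2(TPM + 1) (0.10), and with the GC trend removed (0.0765, and 0.0762 with the block), and ranged from -0.065 to 0.018 as libraries were left out. ABCE1 turned positive on log2(FPKM + 1) (0.0381), log2(FPKM + 0.1) (0.0386) and log2(TPM + 1) (0.085). ABCF2 turned negative with no filter (-0.0044) and when summed with ABCF2-H2BE1 (-0.14), and ranged from -0.034 to 0.033 as libraries were left out. The median of all genes tested, 0.0109, moved as well. It was 0.0536 with upper-quartile scaling, 0.0682 on log2(FPKM + 1), 0.12 on log2(TPM + 1), 0.0469 with no filter and 0.0023 with the GC trend removed. For the signs of ABCA3, ABCE1 and ABCF2 too the cause was not tested.

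Libraries with the same replicate number did not deviate together (correlations of 0.046, -0.0088 and -0.013), so the numbers were not taken as pairs; with a replicate block 12 members rose and 13 fell, and 4985 and 4831 genes overall. Depth limits the 14 untested members and, with at most 122 summed counts in a group, ABCB1, ABCA9 and ABCA10.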
